A study of Mus musculus with 29 samples.

Results

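S100a8, S100a9, Camp, Ngp, Ltf, Lcn2, Retnlg, Elane and Mpo encode the alarmins and granule proteins of neutrophils, and their transcripts were followed cell by cell in 29 single-cell libraries labelled as T cells. The 9 genes are entries of a table of 54838 genes and were chosen from measured values, since high S100a8 and other neutrophil transcripts in these libraries were already known. Their presence here is therefore a description and not a finding, and no test is given for it. The cells came from the spleens of OT-1 mice, a strain whose transgenic T cell receptor recognises an ovalbumin (OVA) peptide bound to class I MHC. The splenocytes had been treated with a buffer that lyses red blood cells and passed through a cell strainer. Per the labels, 21 cells had spent 3 h in contact with OVA-presenting APC (antigen-presenting cells) and 8 cells the same time with APC presenting nothing. All cells of both groups are OT-1. How T cells were taken from the splenocytes, what kind of cell the APC were, and how many mice were used were not stated in the labels. Each cell was lysed in a tube of its own and amplified by SMART-seq2, which copies full-length mRNA. The study compared cells that had met their antigen with cells that had not. Single cells are called O1 to O21 (OVA) and N1 to N8 (nothing), with numbers that serve as names alone.

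S100A8 and S100A9 are small calcium-binding proteins that pair as calprotectin, fill the cytosol of neutrophils, and act as alarmins through TLR4 and RAGE once released. Granule proteins are made in a fixed order while neutrophils mature. Elastase (Elane) and myeloperoxidase (Mpo) of the azurophil granules come first, at the promyelocyte stage. The proteins of the specific granules, among them the cathelicidin precursor (Camp), neutrophilic granule protein (Ngp), lactoferrin (Ltf) and lipocalin 2 (Lcn2), come later, and the transcripts of most granule proteins are low in mature cells. Retnlg encodes resistin-like gamma, a secreted protein of mature mouse neutrophils. None of these products is a usual marker of T cells.

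The values are TPM, length-scaled transcript abundances, which sum to 1000000 in each library and include the ERCC spike-ins, synthetic RNAs added to each tube. Read numbers cannot be recovered from TPM, which leaves the depth of each library unknown, and a value of 0 can be a failed estimate. A gene was counted as detected at a TPM of at least 1, and none of the 9 genes had a value between 0 and that limit. ERCC entries held 5.58% to 99.4% of TPM and 92 to 6385 genes were detected per cell. Since mouse, culture and day are not in the labels, each group is 1 sample, cells are not replicates, and no test between the groups was possible. Exact Clopper-Pearson 95% intervals are given for shares of cells, and these intervals, like the limit that 3 cells of the total set on a share of 0, cover counting error only. No pair of libraries held identical values.

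The T cell label was checked first, and O8 went against it. O8 had all 9 genes, 11 of 25 further neutrophil genes, and Trac, Trbc1 and Trbc2, which encode the constant regions of the alpha and beta chains of the T cell receptor, listed at 0. Only 4 of the 29 libraries, all from OVA cells, had any of these 3 constant-region transcripts (13.8%, 95% interval 3.89% to 31.7%). Of 18 T cell genes, Cd8a, Cd5, Cd2, Lck and Trat1 were not detected in any library. Cd8a encodes the alpha chain of the CD8 co-receptor of class I restricted T cells. At least 1 of the 18 was detected in 12 of 21 OVA cells and in 3 of 8 nothing cells. In O8 it was Thy1 alone, at 15.0 TPM, and the neutrophil markers Ly6g and Cxcr2 were not detected there. Given its 9 genes and no receptor constant transcript, O8 is not called a T cell below. The group differences and the alarmin correlations are also given without O8. So are the counts of OVA cells with at least 1 or at least 3 of the 9 genes, or with listed neutrophil and T cell genes. The counts of OVA cells for single genes, for any alarmin and for any granule gene include O8.

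The upstream sequences of S100a8, S100a9 and Ngp are shown because these 3 genes were detected in the most cells of the 9. They are taken from the RefSeq promoter windows (build GRCm38.p6), run 5′ to 3′ on the strand of the gene, and stop before the first annotated start in RefSeq or GENCODE M21. Capitals mark matches to the core of the C/EBP motif, TTNNGNAA, on either strand. C/EBP factors are the transcription factors of granulocyte development. The windows lie at chr3:90668821-90668977 (S100a8, plus strand), chr3:90695722-90695971 (S100a9, minus strand) and chr9:110419558-110419746 (Ngp, plus strand).
S100a8: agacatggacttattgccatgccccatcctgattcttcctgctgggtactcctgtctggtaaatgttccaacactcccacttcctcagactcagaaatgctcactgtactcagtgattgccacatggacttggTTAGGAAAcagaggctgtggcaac
S100a9: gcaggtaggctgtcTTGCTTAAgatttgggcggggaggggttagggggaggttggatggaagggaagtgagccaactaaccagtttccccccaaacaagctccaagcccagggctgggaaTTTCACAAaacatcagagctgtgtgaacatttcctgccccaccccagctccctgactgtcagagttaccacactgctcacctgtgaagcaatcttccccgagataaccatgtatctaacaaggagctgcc
Ngp: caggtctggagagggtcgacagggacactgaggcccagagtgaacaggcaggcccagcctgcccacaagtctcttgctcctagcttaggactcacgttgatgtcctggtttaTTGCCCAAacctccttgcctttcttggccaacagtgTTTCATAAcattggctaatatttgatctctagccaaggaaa

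Over the 250 bases before the RefSeq start, all 9 genes had a window, and 6 of 9 held the C/EBP core, against 36.8% of 32536 windows of that length. S100a9 held 2 matches and Ngp 3, 1 of the latter lying past the stretch printed. Camp, Elane and Mpo held none. GAGGAA, the core of the motif of PU.1, another factor of myeloid cells, was in 5 of 9 windows and in 23.4% of all windows, searched on both strands. TATAAA was found in 1 of 9, that of S100a8, 30 to 25 bases before the RefSeq start, and in 12.3% of all windows. GENCODE places the first exon of S100a8 93 bases further upstream, so that match lies within it. No match of one motif overlapped a match of another in the 9 windows, and a match is a description of letters, not a site of binding.

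S100a8 (ENSMUSG00000056054) lies at chr3:90668978-90670035 on the plus strand of GRCm38 and has 3 exons. Its partner S100a9 (ENSMUSG00000056071) lies 22.6 kb further on, at chr3:90692632-90695721 on the minus strand, and also has 3 exons. S100a8 was detected in 12 of 21 OVA cells (57.1%, 34.0% to 78.2%) and in 4 of 8 nothing cells (50%, 15.7% to 84.3%). S100a9 was detected in 11 of 21 OVA cells (52.4%, 29.8% to 74.3%) and in 4 of 8 nothing cells. At least 1 alarmin was present in 13 of 21 OVA cells (61.9%, 38.4% to 81.9%) and in 5 of 8 nothing cells (62.5%, 24.5% to 91.5%).

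Over all OVA cells S100a8 ran from 0 through a median of 188 TPM to 8910 TPM. The highest level was in O8, followed by 5939 in O2, 3572 in O6, 3195 in O20, 2626 in O11, 2334 in O16 and 2129 in O1. O18 had 1591 TPM, O5 had 747, O9 had 391, O12 had 188 and O17 had 11.0. The other 9 OVA cells were listed at 0. Over the nothing cells it ran from 0 through a median of 5.61 TPM to 1729 TPM, with 1729 in N4, 1234 in N5, 442 in N7, 11.2 in N8 and 0 in the other 4. The groups overlapped over the whole range of the nothing cells, and 7 OVA cells lay above the highest nothing cell.

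S100a9 ran from 0 through a median of 536 TPM to 9320 TPM in the OVA cells. O8 was again the highest, followed by 4001 in O6, 2769 in O2, 2442 in O11 and 1473 in O16. The remaining OVA cells with S100a9 lay close together, at 941 in O12, 748 in O1, 652 in O15, 629 in O9, 552 in O18 and 536 in O20. Among nothing cells the median was 163 TPM, with 1198 in N4, 886 in N5, 474 in N7, 326 in N6 and 0 in the other 4. Wherever S100a9 was detected it was at 326 TPM or more, whereas S100a8 was present at about 11 TPM in 1 cell of each group.

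**Figure D1:**
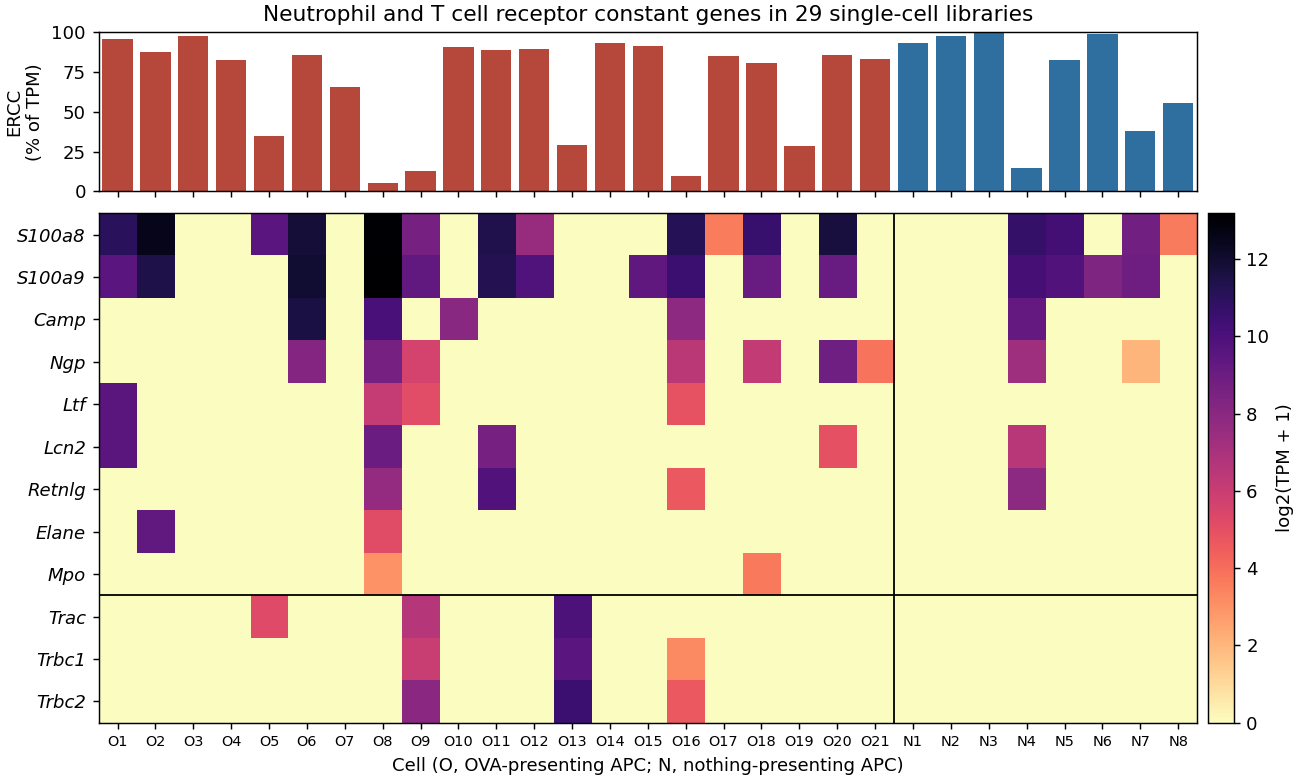
Level of the 9 genes and of Trac, Trbc1 and Trbc2 in each of 29 libraries, as log2(TPM + 1) in colour, with the ERCC share of TPM (%) above as bars, red for OVA and blue for nothing cells. Column O8 is filled for all 9 genes and empty for the receptor genes, and column O13 is filled for the receptor genes only.

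The alarmins appeared together in 13 of 29 cells, 10 OVA cells and 3 nothing cells. S100a8 was present without S100a9 in O5, O17 and N8, and S100a9 without S100a8 in O15 and N6. In the 13 cells with both, the ratio of S100a9 to S100a8 TPM had a median of 0.718 and ran from 0.168 in O20 to 5.01 in O12. S100a9 was the higher of the pair in 5 of 13 cells, namely O6 (1.12), O8 (1.05), O9 (1.61), O12 and N7 (1.07). The plot of one alarmin against the other shows most of the cells with both near the line of equal level. Across the 29 cells, which share within each library the same total and depth, Pearson's r of the log2 values was 0.81 and Spearman's rho 0.83. Within the 13 cells with both they were 0.67 and 0.65. Without O8 they were 0.80 and 0.81 over 28 cells, and 0.55 for each measure over the 12 cells with both.

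**Figure D2:**
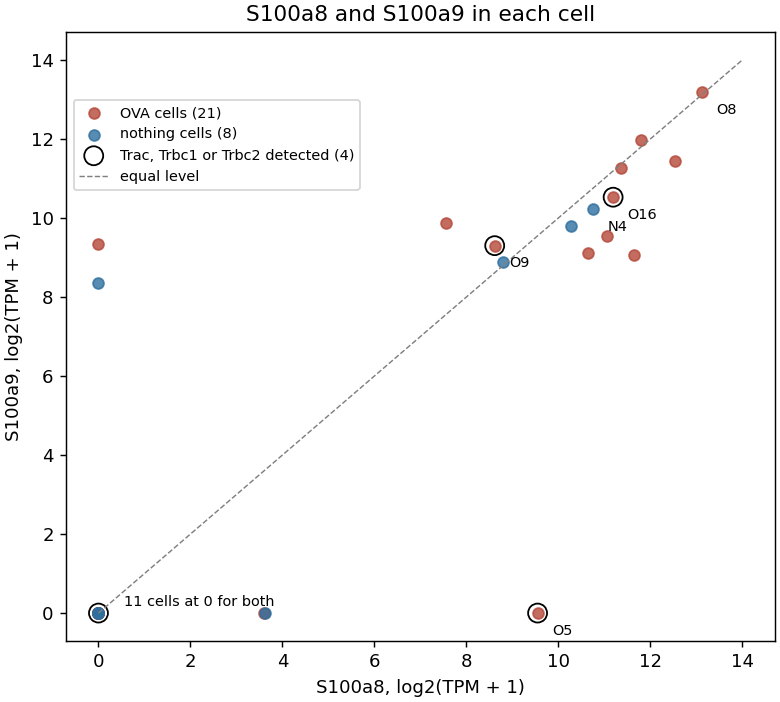
S100a9 against S100a8 in each cell, both as log2(TPM + 1), with OVA cells in red, nothing cells in blue, the line of equal level dashed, and a ring around the 4 cells with a T cell receptor constant transcript. The 13 cells with both genes lie to the upper right, 3 of the ringed cells have an alarmin, and 11 cells are at 0 for both.

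Where the alarmins were present they were among the most abundant transcripts of the library. Among nuclear protein-coding genes S100a8 ranked from 1 (O16) to 11 in 13 of its 16 cells, with a median rank of 4. In the others it ranked 37 (O12), 165 (O17) and 470 (N8). S100a9 ranked from 1 (O8) to 11 (O20) in all 15 cells that had it, with a median rank of 5. Only 15 protein-coding genes were detected in more cells than S100a8 and 20 in more cells than S100a9. Among transcripts that every cell uses, Actb, which encodes beta-actin, was in 14 of 29 cells, Eef1a1 in 13, Gapdh in 5 and B2m in 4. In the 6 libraries with none of 13 such genes, 4 still had an alarmin.

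**Figure D3:**
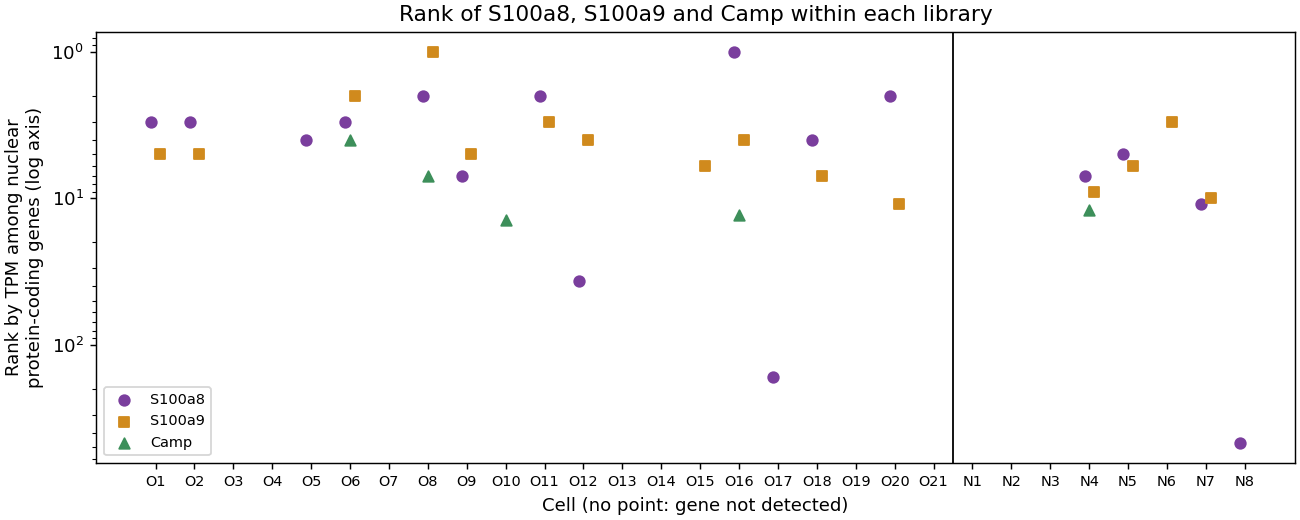
Rank of S100a8 (circles), S100a9 (squares) and Camp (triangles) by TPM among nuclear protein-coding genes in each library, on a log axis with rank 1 at the top and no point where the gene was not detected. S100a9 stays within ranks 1 to 11, and S100a8 does so in all but O12, O17 and N8.

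Of the granule and secreted products, the genes of the azurophil granule were the rarest. Elane (ENSMUSG00000020125, chr10:79886247-79888215, 5 exons) was detected in O2 at 631 TPM and in O8 at 35.7 TPM. Mpo (ENSMUSG00000009350, chr11:87793581-87804413, 14 exons) was detected in O8 at 7.16 TPM and in O18 at 11.7 TPM. Each was thus in 2 of 21 OVA cells (9.52%, 1.17% to 30.4%) and in 0 of 8 nothing cells (a count that leaves room for shares up to 37.5%). Prtn3, which encodes proteinase 3 of the same granule, was at 94.99 TPM in O8, whereas Ctsg, Ms4a3 and Bpi were not detected in any cell. Only O8 had Elane and Mpo together.

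Camp, Ngp and Ltf of the specific granule lie within 1195 kb on chromosome 9. Camp (ENSMUSG00000038357, chr9:109847379-109849617, 4 exons) reached 3032 TPM in O6 and 1088 TPM in O8. It was at 254 TPM in O10, 228 in O16 and 603 in N4, and was thus in 4 of 21 OVA cells (19.0%, 5.45% to 41.9%) and in 1 of 8 nothing cells (12.5%, 0.316% to 52.7%). In O6 it ranked 4 among nuclear protein-coding genes, next to both alarmins.

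Ngp (ENSMUSG00000032484, chr9:110419747-110423012, 4 exons), which encodes a granule protein of the cystatin family, was the most widely detected granule gene. It was present in 7 of 21 OVA cells (33.3%, 14.6% to 57.0%) and in 2 of 8 nothing cells (25%, 3.19% to 65.1%). Its values were 455 TPM in O20, 390 in O8, 281 in O6, 83.5 in O16, 69.4 in O18, 47.4 in O9 and 13.1 in O21. The nothing cells with Ngp were N4 at 159 TPM and N7 at 3.09 TPM, so the groups overlapped.

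Ltf (ENSMUSG00000032496, chr9:111019271-111042767, 17 exons), whose iron-binding product starves microbes of iron, was found at 729 TPM in O1, 68.1 in O8, 34.4 in O9 and 28.5 in O16. It was in 0 of 8 nothing cells, with the same upper limit of 37.5%. Lcn2 (ENSMUSG00000026822, chr2:32384633-32388252, 6 exons) binds bacterial siderophores. It was at 725 TPM in O1, 507 in O8, 401 in O11, 30.1 in O20 and 91.8 in N4. Retnlg (ENSMUSG00000022651, chr16:48872621-48874496, 4 exons) was at 883 TPM in O11, 202 in O8, 24.2 in O16 and 236 in N4. For Lcn2 and Retnlg the nothing cell with the gene lay inside the range of the OVA cells with it.

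Which granule genes accompanied the alarmins differed from cell to cell. A granule gene was present in 11 of 21 OVA cells (52.4%, 29.8% to 74.3%) and in 2 of 8 nothing cells (25%, 3.19% to 65.1%). These intervals cover counting error only, and no test between the groups was possible. O10 (Camp) and O21 (Ngp) had a granule gene without an alarmin, and 4 OVA cells and 3 nothing cells had an alarmin without a granule gene. Summed granule TPM was 0.505 times the summed alarmins in O1, where Ltf and Lcn2 made it up, and 0.437 times in O6, where it was mostly Camp. It was 0.372 times in N4, 0.126 times in O8 and 0.00337 times in N7.

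In all, at least 1 of the 9 genes was detected in 15 of 21 OVA cells (71.4%, 47.8% to 88.7%) and in 5 of 8 nothing cells (62.5%, 24.5% to 91.5%). At least 3 were detected in 9 of 21 OVA cells (42.9%, 21.8% to 66.0%) and in 2 of 8 nothing cells (25%, 3.19% to 65.1%). Without O8 the OVA counts were 14 of 20 and 8 of 20. O8 had 9 of them, O16 and N4 had 6, O1, O6, O9, O11, O18 and O20 had 4, and O2 and N7 had 3. None of the 9 was detected in O3, O4, O7, O13, O14 and O19 or in N1, N2 and N3.

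Relative to the spike-ins the alarmins were highest in 3 libraries in which spike-ins took a small share, O8, O16 and N4 (5.58%, 9.88% and 14.8% of TPM). Summed S100a8 and S100a9 amounted to 327 TPM per 1000 ERCC TPM in O8, 38.5 in O16, 19.7 in N4 and 9.91 in O2. Spike-ins are the divisor of this ratio, so a small spike-in share by itself raises it. O9, with a spike-in share of 12.6%, had 8.12. The median over the 18 cells with an alarmin was 2.83, and the lowest values were 0.0130 in O17 and 0.0202 in N8. The amount of spike-in RNA is not given, so the ratio is comparable between tubes only where equal amounts were added. O7, O13 and O19, in which the spike-ins held 65.9%, 29.4% and 28.5% of TPM, had more cellular RNA by this measure than most libraries and had none of the 9 genes.

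Relative to the other genes of the library the order was another. The 9 genes made up 10.2% of all gene TPM in O1, 7.71% in O2, 7.47% in O6 and 5.75% in O11, libraries whose ERCC share was 95.7%, 87.9%, 85.4% and 88.96%. In O8, with an ERCC share of 5.58%, they made up 2.17%, in O16 0.463% and in N4 0.471%. The median over all cells was 0.276% in the OVA group and 0.0751% in the nothing group. The number of genes detected differed along with it, at 233 in O1, 620 in O2 and 4180 in O8.

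**Figure D4:**
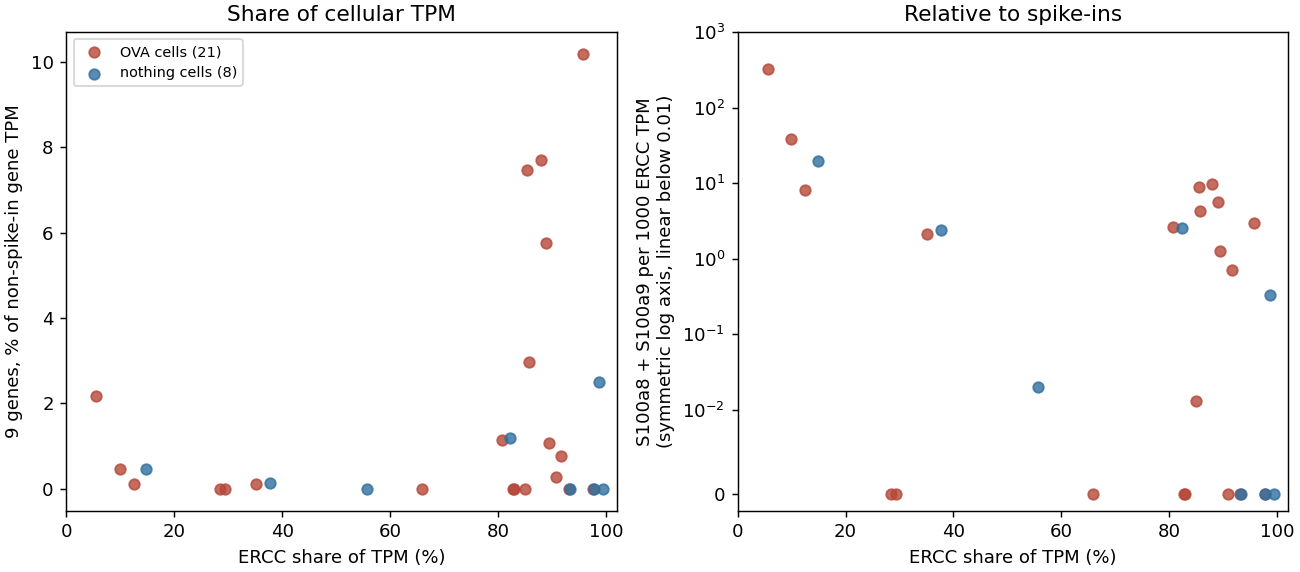
Left, summed TPM of the 9 genes as % of non-spike-in gene TPM, and right, S100a8 plus S100a9 per 1000 ERCC TPM on a symmetric log axis, each against the ERCC share of TPM (%), with OVA cells in red and nothing cells in blue. On the left the 4 highest cells (5.75% to 10.2%) lie above an ERCC share of 85%, and on the right the 3 highest (19.7 to 327) lie below 15%.

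By ERCC share, an alarmin was detected in 7 of 10 libraries with at most 80% ERCC (4 of 7 OVA and 3 of 3 nothing cells), in 8 of 10 libraries between 80% and 90% (7 of 9 and 1 of 1), and in 3 of 9 libraries over 90% (2 of 5 and 1 of 4). The groups differed in how many of their libraries fell in the last band, 5 of 21 OVA cells and 4 of 8 nothing cells. A comparison of the 9 genes between the groups is therefore also one of libraries with different spike-in shares.

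The difference between the groups was taken as the mean of log2(TPM + 1) over OVA cells minus that over nothing cells, a scale that understates differences of low genes. For S100a8 it was 1.66 (5.84 ± 5.54, SD over 21 cells, against 4.18 ± 4.95, SD over 8 cells), and for S100a9 0.80 (5.46 ± 5.42 against 4.66 ± 5.01). Both differences were smaller than the SD between the cells of either group. Ltf differed by 1.22, Ngp by 1.09, Lcn2 by 0.71, Camp by 0.63 and Retnlg by 0.07. Elane (0.69) and Mpo (0.32) were in fewer than 3 cells and are not counted among the 3717 genes compared, which had to be detected in at least 3 cells. Of the 7 members that were, 3 reached a difference of 1 (S100a8, Ltf and Ngp), beside 9.31% of all 3717 genes, and 0 reached -1, beside 6.62%. Their median difference was 0.80, against 0.10 over all genes compared. Of these 7 genes, 6 were detected in both groups, beside 73.6% of all genes compared. As the genes were chosen from these libraries, nothing is read from these counts.

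Of the 9 differences 5 changed sign when the libraries richest in spike-ins were left out. Without the 9 libraries over 90% ERCC, which left 16 OVA cells and 4 nothing cells, S100a8 was lower in the OVA cells by this measure (-1.38), as were S100a9 (-1.24), Retnlg (-0.59), Camp (-0.47) and Lcn2 (-0.22), while Ltf (1.01), Elane (0.91), Ngp (0.63) and Mpo (0.42) stayed above 0. Single cells moved the values as well. Without N4 the S100a8 difference was 2.60, that of Ngp 1.97 and that of Camp 1.78, and without N1, which had none of the 9 genes, that of S100a8 was 1.07. Without O8 the differences were 1.3 for S100a8, 0.98 for Ltf and 0.78 for Ngp, so that S100a8 alone of the 3 stayed past 1. The others were smaller too without O8, at 0.47 for Elane, 0.41 for S100a9, 0.34 for Lcn2, 0.22 for Camp and 0.18 for Mpo, and that of Retnlg turned to -0.26. Without O1 the Ltf difference was 0.81, without O20 that of Ngp was 0.77, and without O11 that of Retnlg was -0.37. With single cells left out the S100a9 difference ran from 0.13 to 1.6. The part of the spike-in share in the group difference was not tested beyond these values.

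Transcripts of the 9 genes were found in 20 of 29 cells and those of the 3 receptor constant genes in 4. At least 1 of the 9 genes was present without Trac, Trbc1 or Trbc2 in 17 of 29 cells, a constant-region transcript without any of the 9 in 1 cell, both in 3 cells, and neither in 8 cells. O13 was the cell with receptor transcripts alone, with Trac at 1009 TPM, Trbc1 at 756 TPM and Trbc2 at 1487 TPM, and with Cd8b1, which encodes the CD8 beta chain, at 136 TPM. The 3 cells with both were O5, O9 and O16. O5 had Trac at 36.8 TPM beside S100a8 at 747 TPM. O9 had Trac at 96.2, Trbc1 at 64.0 and Trbc2 at 250 TPM beside S100a8 at 391 and S100a9 at 629 TPM. O16 had Trbc1 at 8.42 and Trbc2 at 24.0 TPM, together with Cd3d, a CD3 chain, at 41.0 TPM, beside S100a8 at 2334 TPM.

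As a share of gene TPM, the alarmins exceeded the receptor transcripts in each of these 3 cells. The shares were 0.117% against 0.0469% in O9, 0.115% against 0.00567% in O5, and 0.422% against 0.00360% in O16. Over the whole list of 18 T cell genes, 10 were detected in OVA cells and 5 in nothing cells, in 12 of 21 and 3 of 8 cells (without O8, 10 genes in 11 of 20 OVA cells). The list includes Trac, Trbc1 and Trbc2, which were in 4 OVA cells, so its count of cells could not be lower than theirs. The summed level ran from 0 to 3671 TPM in the OVA group and from 0 to 78.7 TPM in the nothing group. Other T cell genes appeared in libraries with alarmins, such as Zap70 at 76.4 TPM in O18, Cd3e at 43.4 and Cd3g at 35.3 TPM in N5, and Thy1 at 15.0 TPM in O8.

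Further neutrophil genes were rarer than the alarmins. Of 25 such genes, 18 were detected in OVA cells and 4 in nothing cells, in 10 of 21 and 2 of 8 cells. Without O8 it was 13 of the 25 genes in 9 of 20 OVA cells. Their summed level ran from 0 to 1086 TPM in the OVA group and from 0 to 132 TPM in the nothing group. The highest sum was that of O8, and the next in the OVA group was O20 at 864 TPM. Cxcr2, Ly6g, Fpr1, Fpr2, Il1r2, G0s2 and Lrg1 were not detected in any cell, and among them Ly6g and Cxcr2, a surface antigen and a chemokine receptor, are the usual markers of mature mouse neutrophils. O8 had 11 of the 25, led by Wfdc21 at 545 TPM, Chil3 at 200 TPM and Pglyrp1 at 136 TPM. Its receptor genes Csf3r (23.6 TPM), for the granulocyte growth factor G-CSF, and Itgam (9.95 TPM), for CD11b, were lower. The next were O16 with 4 genes (Ifitm6 at 134, Wfdc21 at 42.9, Itgam at 15.1 and Clec4d at 7.15 TPM), O20 with 3 (Ifitm6 at 802, Mmp8 at 47.0 and Trem1 at 15.3 TPM) and N4 with 3 (Chil3 at 62.8, Cxcl2 at 41.7 and Hdc at 27.5 TPM). O1, O6 and O18, with 4 of the 9 genes each, had none of the 25.

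**Figure D5:**
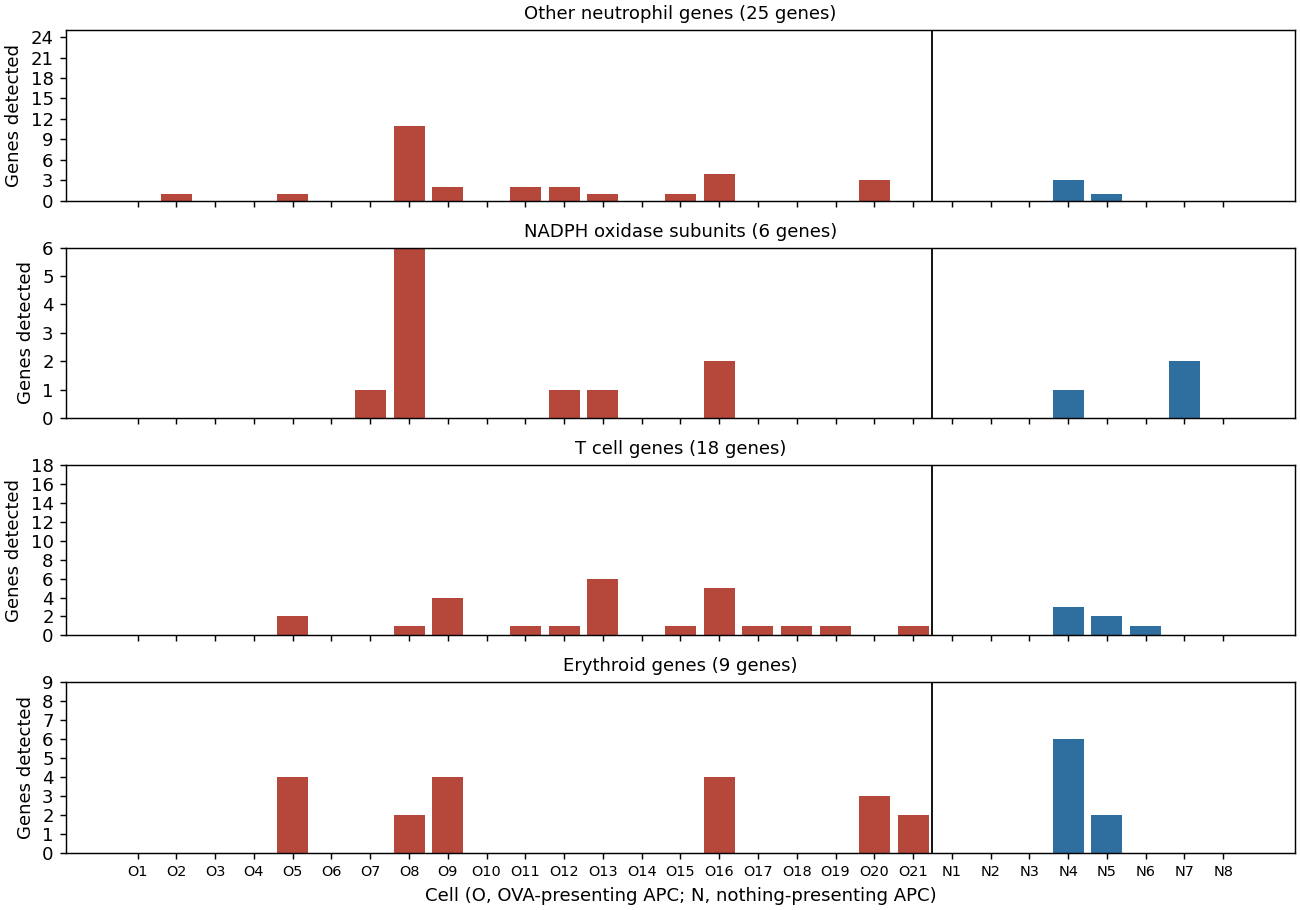
Number of genes detected in each library from 4 lists, other neutrophil genes (25), NADPH oxidase subunits (6), T cell genes (18) and erythroid genes (9), with OVA cells in red and nothing cells in blue. O8 has 11 of the neutrophil genes, all 6 oxidase subunits and 1 T cell gene, and the other libraries have at most 4 neutrophil genes.

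The phagocyte NADPH oxidase, which makes the superoxide of the respiratory burst, was complete in O8 alone among the 29 libraries. All 6 genes of the list were detected there, among them Ncf4 at 83.0, Ncf1 at 70.8 and Rac2 at 62.6 TPM, and at most 2 in any other cell. O8 had 4180 genes detected, against a median of 855 over all cells, which leaves more room for genes of this and other lists. N4, with 6385 genes detected, had 1 of the 6. Of 10 transcription factors of granulocyte development O8 had 6, with Cebpe, which drives the specific granule genes, at 64.7 TPM and Spi1, which encodes PU.1, at 34.6 TPM. Cebpe was detected in no other cell, and Spi1 was at 48.2 TPM in N4. Gfi1 and Runx1 were not detected.

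Of 8 receptors and adaptors of the alarmins, 2 were detected, in 3 cells each, beside 4 cells for B2m and 5 for Gapdh among genes that every cell uses. Tlr4 was detected in O5 at 23.0, in O8 at 13.1 and in O14 at 19.6 TPM, and its adaptor Myd88 in O5, O8 and O16 at 44.3, 5.87 and 1.55 TPM. Ager, which encodes RAGE, and Ly96, Cd14, Cd36, Bsg and Tlr2 were not detected in any cell. Of the 15 other genes of the S100 list each was detected in at most 2 cells. S100a4 was at 247 TPM in O16 and 248 TPM in N7, S100a6 at 120 TPM in O16 and 106 TPM in O19, and S100a11 at 263 TPM in O8 and 410 TPM in O20. S100a5, S100a10, S100a14, S100a16, S100g and S100z were not detected.

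Transcripts of other blood cells were present in the same libraries. A haemoglobin gene was detected in 8 cells, 7 of which also had an alarmin, with Hba-a2 at 894 TPM in O20 and 439 TPM in O5. The erythroid list summed to between 0 and 1616 TPM in the OVA group and between 0 and 630 TPM in the nothing group. Lyz2, the lysozyme of myeloid cells, was detected in 6 cells, all with an alarmin, at 427 TPM in O18, 165 in O8, 137 in O20, 99.0 in O6, 16.1 in N4 and 8.81 in O9. An alarmin was present in 18 of all 29 libraries (62.1%, 42.3% to 79.3%). With so few cells, nothing is read from the overlap of the haemoglobin genes or Lyz2 with the alarmins. Of the 13 monocyte and macrophage genes, which include Lyz2, the summed level ran from 0 to 427 TPM in the OVA group and from 0 to 46.9 TPM in the nothing group, and Adgre1, Fcgr1, C1qa, C1qb, C1qc and Cd5l were not detected. Of 10 B cell genes Cd79b alone was detected, at 35.9 TPM in N4. The part of RNA from other cells in the alarmin and granule values was not tested.

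The genes whose pattern was most like the summed alarmins were weakly related to them. By Pearson's r of log2 values over 29 cells, among 2444 genes, the first 10 were Wnk1 (0.50), Lyz2 (0.50), Ankrd17 (0.50), Msl2 (0.48), Lilr4b (0.48), Ppp1r10 (0.48), Mbnl1 (0.47), Actb (0.46), an entry that the deposited table names as 2-Sep (0.46) and Zbtb2 (0.46). They were detected in 4 to 14 cells each, 5 of the 10 were also among the first 10 by Spearman's rho, and in such sparse values correlations of this size are not a finding.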

How the data were processed

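Single OT-1 cells were profiled by SMART-seq2, and the authors deposited 1 table of TPM values with 1 column per cell, in which each column sums to 1000000 over 54933 entries (54838 genes, 92 ERCC spike-ins and 3 transgenes). Per the submitters' processing notes, the tools were featureCounts 1.6.4, HISAT2 2.1.0 and StringTie 1.3.5 and the genome was mm10 (GRCm38), and what each did is not given there. TPM keeps no depth, and 97.3% of gene entries were 0, which limits what an undetected gene can mean. Doublets were not called.

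The 9 genes and all gene lists were chosen with earlier results of these data known. The named genes were the 9 in every cell, the listed genes in libraries with at least 3 of the 9, and the 10 genes most like the summed alarmins, leaving out spike-ins, mitochondrially encoded genes, pseudogenes and predicted models. Some further listed genes are named as undetected, and a few genes within the rule are not reported here.

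Detection meant a TPM of at least 1. Differences are means of log2(TPM + 1), OVA minus nothing, over genes detected in at least 3 cells, with no test because each group is 1 sample. Positions are from GENCODE M21 (GRCm38), promoter windows from RefSeq (GRCm38.p6). Python 3.11.15, numpy 2.4.6, pandas 2.3.3, scipy 1.17.1 and matplotlib 3.10.9 were used, and the calculation was tested on simulated data. Alternatives were detection above 0 or at 10, pseudocounts of 0.1 and 10, rescaling without spike-ins, leaving out libraries over 90% ERCC or each cell in turn, another set of spike-ins, and other filters.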

Additional observations from a re-analysis of the deposited data

Results flagged for a closer look

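N4 stood far from the other 7 nothing cells in 6 quantities. Each time the gap to the next nothing cell passed Dixon's criterion at 95% against the whole range of the group. Chance meets it in about 1 in 20 groups of normally distributed values, a rate that does not hold for groups made up mostly of zeros. Camp was at 603 TPM, Lcn2 at 91.8 TPM and Retnlg at 236 TPM in N4, and all 3 were listed at 0 in the other 7. A gene found in 1 cell of a group always passes, so for these 3 the criterion adds nothing to the values. Ngp was at 159 TPM, against 3.09 TPM in the next, N7. The summed alarmins amounted to 19.7 TPM per 1000 ERCC TPM, against 2.58 in the next. N4 also had 6385 genes detected, against 2364 in the next. The neutrophil genes were chosen with these values known, and the 6 quantities come from 1 library and share its depth.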

How the results depend on the processing

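Of 422 recalculated values, 418 stayed within the range that counts as unchanged (less than 1 SD between cells, with no change of sign for a difference past 1, or within 1.5 times for a count or correlation), 3 moved further and 1 reversed. The S100a8 difference of 1.66 reversed to -1.38 without libraries over 90% ERCC, and the cause was not tested. A change of sign in a difference below 1 counts as unchanged here if it is less than 1 SD. Without those libraries S100a9 went from 0.80 to -1.24, Camp from 0.63 to -0.47 and Lcn2 from 0.71 to -0.22. Retnlg had the other sign in 11 of 34 settings, and all of these are among the 418. With no filter on low values the share of all genes higher by at least 1 fell from 9.31% to 1.84% and that of genes lower by at least 1 from 6.62% to 3.59%, since genes found in 1 or 2 cells then enter the total. Counts of list genes and correlations without O8 were added after seeing the data. Ranking by Spearman's rho left 5 of the 10 most similar genes. No paired analysis was possible because the cell numbers are accession order and pair no samples. Depth is unknown, so a gene listed at 0 may have been missed, and 8 nothing cells leave wide intervals.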

Other observations

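N4, the nothing cell with the most of the 9 neutrophil transcripts, also held transcripts of several other blood lineages. N4 had the most genes detected of all 29 libraries (6385, against a median of 855), which leaves more room for genes of any list. Of the genes named next, Ms4a2 was higher in N6, at 260 TPM, and was also in O8 at 4.78 TPM. Siglech was higher in O18, at 121 TPM. Hba-a1 and Hba-a2 were each higher in several other cells, among them O20, at 520 and 894 TPM. N4 had the haemoglobin genes Hba-a2 at 199 and Hba-a1 at 160 TPM, the red cell membrane gene Slc4a1 at 72.0 TPM, Ms4a2, the beta chain of the IgE receptor of mast cells and basophils, at 68.3 TPM, and Cd79b of the B cell receptor at 35.9 TPM. Flt3 at 43.5 and Siglech at 38.8 TPM are genes of dendritic cells and their precursors, and Cd4 at 30.5 and Cd247 at 26.7 TPM are T cell genes. S100a3 at 68.0 TPM was detected in this cell alone. O8, in which all 9 neutrophil transcripts were detected, held 7 of 10 broadly myeloid genes, with Fcer1g at 526, Cst3 at 216 and Tyrobp at 197 TPM, and 1 of 18 T cell genes. N4 had 2 of the 10 and 3 of the 18. Genes of other lineages were not particular to N4. O8 also had the haemoglobin genes Hbb-bt at 72.5 and Hbb-bs at 37.5 TPM, and the dendritic cell gene Clec9a at 20.3 TPM. O16 had Hba-a2 at 199 TPM and the platelet gene Treml1 at 15.7 TPM, beside its receptor transcripts.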
